A study of Homo sapiens with 4 samples.

Results

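The cytosolic chaperone genes described here encode heat-shock proteins, their co-chaperones and the chaperonin and prefoldin complexes. A list of 38 genes was matched by symbol to probe sets annotated with a single gene symbol. A gene with several such probe sets was represented by its brightest on average. Of the 38, 18 had a named probe set, among 14884 named genes in all, and 17 of the 18 reached the level required for testing. The named genes were 6 of 7 in the HSP70 family (HSPA1A, HSPA1B, HSPA4, HSPA4L, HSPA14 and HSPH1), 4 of 5 in the set of small HSP, heat-shock factor and BAG genes (HSPB1, HSF1, BAG2 and BAG3), 5 of 8 co-chaperones (CHORDC1, STIP1, CDC37, PTGES3 and ST13) and 3 of 3 prefoldin subunits (PFDN2, PFDN4 and PFDN6). The TRiC chaperonin (0 of 8), the HSP90 genes (0 of 2) and the HSP40 genes (0 of 5) were not analysed here. Nor were HSPA8, HSF2, AHSA1, FKBP4 and SUGT1. For none of these did a probe set carry the symbol as its only one, and probe sets with several symbols were set aside. The comparison of chaperone groups therefore rests on the HSP70 family, the small HSP set, the co-chaperones and prefoldin.

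Chaperones hold unfolded proteins until they reach their native fold. HSP70 binds short hydrophobic stretches in a cycle driven by ATP, and Hsp110 proteins such as HSPH1 reset that cycle by exchanging its nucleotide. HSP90 takes over late folding steps of kinases and receptors, prefoldin passes new actin and tubulin to the chaperonin, and the transcription factor HSF1 switches many of these genes on after heat or other protein stress. Myeloma cells secrete large amounts of immunoglobulin and are known for a high load on protein folding and degradation.

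RNA was measured on 4 whole-transcript arrays from ARP-1 and MM.1S, established human cell lines from multiple myeloma, which arises from plasma cells. All 4 cultures carried a lentiviral hairpin RNA and were sorted for the green marker of the vector. The hairpin was a control in CTR-KO cells and was directed at MIF, a secreted cytokine, in MIF-KO cells, so that KO stands for a knockdown by RNA interference in a sorted pool. Each combination of line and hairpin had 1 array, which gives n = 2 arrays per hairpin, and the labels do not speak of separate cultures. For ARP-1, the description field of each array contradicts its title and genotype label, each naming the opposite hairpin. The titles were followed, and values with the pair swapped are given beside the tests and beside the counts between hairpins and between lines. Within ARP-1 the swap turns the sign of every difference.

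As a check of the labels, MIF was lower under its hairpin in both lines, with differences of -1.01 (ARP-1) and -1.32 (MM.1S). Its log2 intensities were 10.09 in ARP-1 control cells, 9.08 in ARP-1 MIF-KO cells, 9.98 in MM.1S control cells and 8.66 in MM.1S MIF-KO cells. The mean difference over both lines was -1.17 (SE 0.29), with a limma adjusted p of 0.99995. Median probe set intensities lay between 13.1 and 13.3. Of 10 plasma cell markers 7 were named and tested. The brightest was IRF4, between 11.81 and 12.10. The dimmest was POU2AF1, between 5.03 and 5.22, close to the lower limit for testing (log2 4.97). Of 26 markers of B cells, T cells, monocytes, stromal and erythroid cells, 10 were named and 0 reached the tested level, with log2 values from 2.29 to 4.67. The summed intensity was between 37.5 and 40.4 for the 3 named B cell markers and between 15.4 and 18.5 for the 2 named T cell markers. It was between 41.0 and 48.5 for the 4 named monocyte markers, and DCN, the 1 named stromal marker, lay between 5.09 and 5.87. Of the 4 erythroid markers 0 were named, so that erythroid cells were not assessed.

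Promoter sequences of the genes were looked up because HSF1 acts through the heat-shock element, a series of GAA and TTC letters in which neighbouring units face each other. RefSeq windows (GRCh38.p14) of 250 bases before and 50 after the annotated start were present for 32 of the 38 genes and for 14 of the 18 named on the arrays. A match to 2 facing units, GAANNTTC or TTCNNGAA, each of which reads the same on both strands, was found in 21 of 46 windows of listed genes (45.7%) and in 4737 of 35116 windows of all genes (13.5%). The longer form with 3 alternating units, which contains 2 overlapping short matches, was found in 6 of the 46 windows (13%) and in 172 of all windows (0.49%). Among genes named on the arrays, 8 of 14 held the short form (HSPA1A, HSPA1B, HSPA4L, HSPB1, BAG2, CHORDC1, STIP1 and PFDN6), and CHORDC1 alone held the long form. The E-box CACGTG was in 2 of 46 windows (4.35%, against 7.26% of all windows), and CCAAT or its reverse complement ATTGG was in 16 (34.8%, against 34.6%). A match describes the letters in the window and is not a bound site.

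A few of these promoters are printed 5′ to 3′ as the 250 bases before the start, with heat-shock element letters in capitals. They show the paralog pair that the arrays can hardly separate (HSPA1A, chr6:31815293-31815542, plus strand, and HSPA1B, chr6:31827488-31827737, plus strand), the small heat-shock gene HSPB1 (chr7:76302423-76302672, plus strand), the gene with the most matches (CHORDC1, chr11:90223050-90223299, minus strand) and the gene with the widest expression differences (HSPH1, chr13:31162389-31162638, minus strand).
HSPA1A: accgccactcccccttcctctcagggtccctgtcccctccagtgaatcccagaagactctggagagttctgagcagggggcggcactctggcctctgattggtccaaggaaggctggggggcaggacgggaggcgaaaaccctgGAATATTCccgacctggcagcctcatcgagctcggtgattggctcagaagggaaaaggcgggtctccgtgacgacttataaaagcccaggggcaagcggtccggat
HSPA1B: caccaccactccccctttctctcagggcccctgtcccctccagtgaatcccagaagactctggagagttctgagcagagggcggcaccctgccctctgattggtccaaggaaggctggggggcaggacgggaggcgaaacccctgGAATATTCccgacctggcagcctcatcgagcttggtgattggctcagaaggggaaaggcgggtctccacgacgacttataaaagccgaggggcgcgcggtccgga
HSPB1: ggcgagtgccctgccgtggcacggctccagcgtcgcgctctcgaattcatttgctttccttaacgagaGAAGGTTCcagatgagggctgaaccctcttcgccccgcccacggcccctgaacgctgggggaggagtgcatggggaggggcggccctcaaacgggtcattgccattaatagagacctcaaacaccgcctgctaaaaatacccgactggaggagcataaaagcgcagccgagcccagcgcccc
CHORDC1: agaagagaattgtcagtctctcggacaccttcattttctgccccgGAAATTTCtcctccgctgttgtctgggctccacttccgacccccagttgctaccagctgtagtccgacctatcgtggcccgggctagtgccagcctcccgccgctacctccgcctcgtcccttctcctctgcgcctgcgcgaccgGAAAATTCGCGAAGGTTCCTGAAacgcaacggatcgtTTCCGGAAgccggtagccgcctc
HSPH1: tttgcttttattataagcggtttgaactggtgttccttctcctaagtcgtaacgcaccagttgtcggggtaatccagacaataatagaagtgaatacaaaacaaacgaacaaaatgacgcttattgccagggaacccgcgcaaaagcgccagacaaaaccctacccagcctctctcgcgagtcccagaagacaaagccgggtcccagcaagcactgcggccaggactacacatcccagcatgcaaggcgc
The element of HSPA1A began 106 bases before its start and that of HSPA1B 105 bases before, and over 249 bases set against each other with a shift of 1 base the windows shared 235 letters (94.4%). HSPB1 had 1 match, at 182 bases before the start. CHORDC1 had 6 matches, of which 4 overlapped in a run that began 60 bases before the start. The HSPH1 window held 0 matches, which says only that these letters are not in this window.

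**Figure D1:**
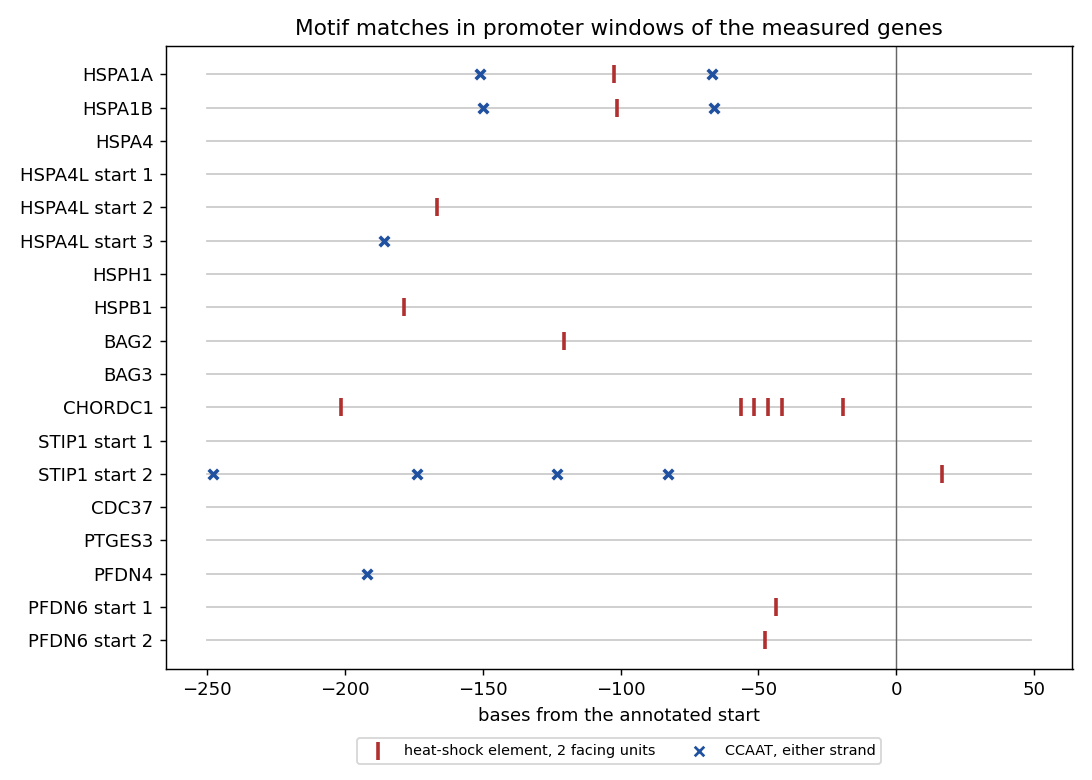
Positions of motif matches in the promoter windows of the 14 measured genes that had a window, with bases from the annotated start on the horizontal axis and 1 row for each annotated start. Red bars are matches to 2 facing heat-shock units and blue crosses are CCAAT on either strand, and CHORDC1 holds 6 of the red bars while HSPH1 holds 0.

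MIF-KO and CTR-KO cells differed in these genes mostly in opposite directions in the 2 lines. Of the 17 tested genes, 15 were lower in MIF-KO ARP-1 than in its control, as were 3892 of all 7442 tested genes. The median log2 difference was -0.52 for the 17, against -0.026 for all tested genes. In MM.1S 14 of the 17 were higher in MIF-KO, as were 4098 of all 7442 (median 0.28, against 0.036 for all tested genes). Both at once held for 13 of the 17, while 37.5% of all tested genes were lower in ARP-1 and higher in MM.1S. Averaged over both lines, limma called 0 of the 17 genes and 0 of 7442 genes (0%) at an adjusted p below 0.05. At an unadjusted p below 0.05 there were 0 of the 17 genes and 29 of all genes, and the lowest limma adjusted p of a chaperone gene was 0.99995. The error of this fit is the disagreement between the lines, with 1 residual degree of freedom.

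A difference of at least 1.5-fold (0.585 on the log2 scale) was counted within each line, where there is 1 array per condition and hence no test. In ARP-1 5 of 17 genes were that much lower in MIF-KO (HSPA14, HSPB1, HSPH1, PFDN6 and STIP1; 11.9% of all tested genes) and 0 were higher (10.9% of all). The 5 became 3 after quantile normalization. In MM.1S 5 were higher (CHORDC1, HSPB1, HSPH1, PFDN2 and PFDN6, against 5.12% of all tested genes) and 0 were lower (2.89% of all). These 5 became 4 after quantile normalization. HSPB1, HSPH1 and PFDN6 passed the limit in both lines, in opposite directions, as did 3.24% of all tested genes. Among the plasma cell markers, CD38 differed by -1.44 (ARP-1) and 0.46 (MM.1S) and SDC1 by -1.36 and 0.48. MZB1 went the opposite way, at 0.45 and -0.63, and so did XBP1, at 0.51 and -0.05, and IRF4, at 0.29 and -0.0074. SLAMF7 differed by 0.024 and 0.37, and POU2AF1 by -0.017 and -0.19. The part of these markers in the chaperone results was not tested. The 7 markers had medians of 0.024 and -0.0074, and their summed intensity ranged from 5814 to 6856 over the arrays.

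**Figure D2:**
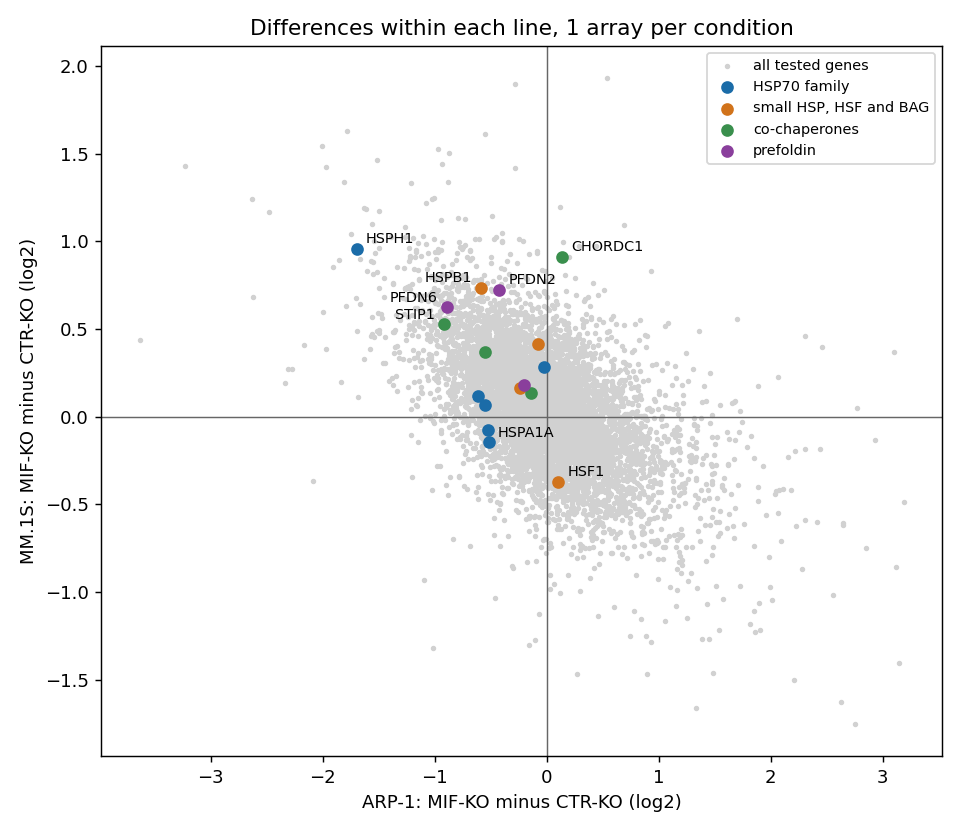
MIF-KO minus CTR-KO in ARP-1 (horizontal, log2) against the same in MM.1S (vertical, log2), with grey points for the 7442 tested genes and coloured points for the 17 chaperone genes by group. Of the coloured points 13 lie to the left of and above 0, with HSPH1 at -1.70 and 0.96.

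When the pair of ARP-1 arrays was swapped, 3 of the 17 genes passed the limma test, as did 401 of 7442 genes (5.39%). HSPH1 was then higher in MIF-KO by 1.33 (SE 0.21, limma adjusted p = 0.012), HSPB1 by 0.66 (SE 0.13, limma adjusted p = 0.025) and PFDN6 by 0.76 (SE 0.19, limma adjusted p = 0.046). STIP1, at 0.72, had a limma adjusted p of 0.051 in that arrangement, and PFDN2, at 0.58, one of 0.068. The remaining 12 genes had adjusted p-values of at least 0.13 there. MIF itself was lower by 1.01 on the ARP-1 array titled MIF-KO, so that the swap would place the lower MIF level in control cells.

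HSPH1 had the widest spread of any of these genes. Its log2 intensity was 9.64 in ARP-1 control cells, 7.95 in ARP-1 MIF-KO cells, 7.71 in MM.1S control cells and 8.67 in MM.1S MIF-KO cells. The control array of ARP-1 was highest and the control array of MM.1S lowest, so that both MIF-KO arrays lay between the controls. MIF-KO stood at 30.8% of control in ARP-1 and at 194% in MM.1S. Among 7442 genes the ARP-1 difference of -1.70 ranked 23 from the lowest and the MM.1S difference of 0.96 ranked 60 from the highest. The mean over both lines was -0.37 (SE 0.67, 95% interval -2.08 to 1.34, n = 2 lines), with a limma adjusted p of 0.99995.

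HSPA1A and HSPA1B encode the stress-inducible HSP70 and are neighbours with near-identical transcripts, so their probe sets can share signal. HSPA1A was at 10.26 in ARP-1 control cells, 9.74 in ARP-1 MIF-KO cells, 9.56 in MM.1S control cells and 9.42 in MM.1S MIF-KO cells. HSPA1B was at 10.93, 10.40, 10.20 and 10.13 on the same arrays. By their brightest probe sets they were the only tested genes of the list that were lower in MIF-KO in both lines. The differences were -0.52 and -0.15 for HSPA1A and -0.53 and -0.07 for HSPA1B. Both lines were ordered alike, with ARP-1 above MM.1S on every array. The mean difference was -0.33 for HSPA1A (SE 0.29, 95% interval -1.07 to 0.41) and -0.30 for HSPA1B (SE 0.27, 95% interval -1.01 to 0.41), each with a limma adjusted p of 0.99995.

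Each of these paralogs had 5 probe sets, 3 of which carried the same values on every array for HSPA1A. Across the 5 of HSPA1A the differences ran from -0.54 to -0.51 in ARP-1 and from -0.15 to -0.10 in MM.1S. Across the 5 of HSPA1B they ran from -0.57 to -0.45 in ARP-1 and from -0.09 to 0.04 in MM.1S. The ARP-1 direction was thus common to all 10 probe sets, which read near-identical transcripts on the same arrays and are not separate measurements. In MM.1S the probe sets of HSPA1B were split, with differences of 0.036, 0.014 and 0.00075 against -0.074 and -0.088.

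Among the other HSP70 genes, HSPA4, an Hsp110 relative that exchanges nucleotide on HSP70, was at 9.33, 8.77, 8.88 and 8.94 (ARP-1 control, ARP-1 MIF-KO, MM.1S control and MM.1S MIF-KO). The ARP-1 control stood above the other 3 arrays. HSPA14, an HSP70 that works at the ribosome, was at 7.97, 7.35, 8.04 and 8.16 in the same order, so that MIF-KO ARP-1 was the low array. HSPA4L, a close relative of HSPA4, was at 8.50, 8.48, 8.61 and 8.90, and MIF-KO MM.1S was its high array. In ARP-1 HSPA4 differed by -0.55, HSPA14 by -0.61 and HSPA4L by -0.02, and in MM.1S they differed by 0.07, 0.12 and 0.28.

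The HSP70 family as a group had a median of -0.54 in ARP-1, where 6 of 6 genes were lower, and of 0.09 in MM.1S, where 4 were higher and 2 lower. Its deviation from each gene's mean over the arrays had a median of 0.43 in ARP-1 control cells, -0.17 in ARP-1 MIF-KO cells, -0.14 in MM.1S control cells and 0.07 in MM.1S MIF-KO cells. The median over all tested genes lay between -0.023 and 0.032 on each array. CTR-KO ARP-1 was the highest of the 4 arrays for 8 of the 17 chaperone genes, against 32.1% of all tested genes. Those 8 were HSPA1A, HSPA1B, HSPA4, HSPH1, BAG3, STIP1, CDC37 and PFDN6.

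**Figure D3:**
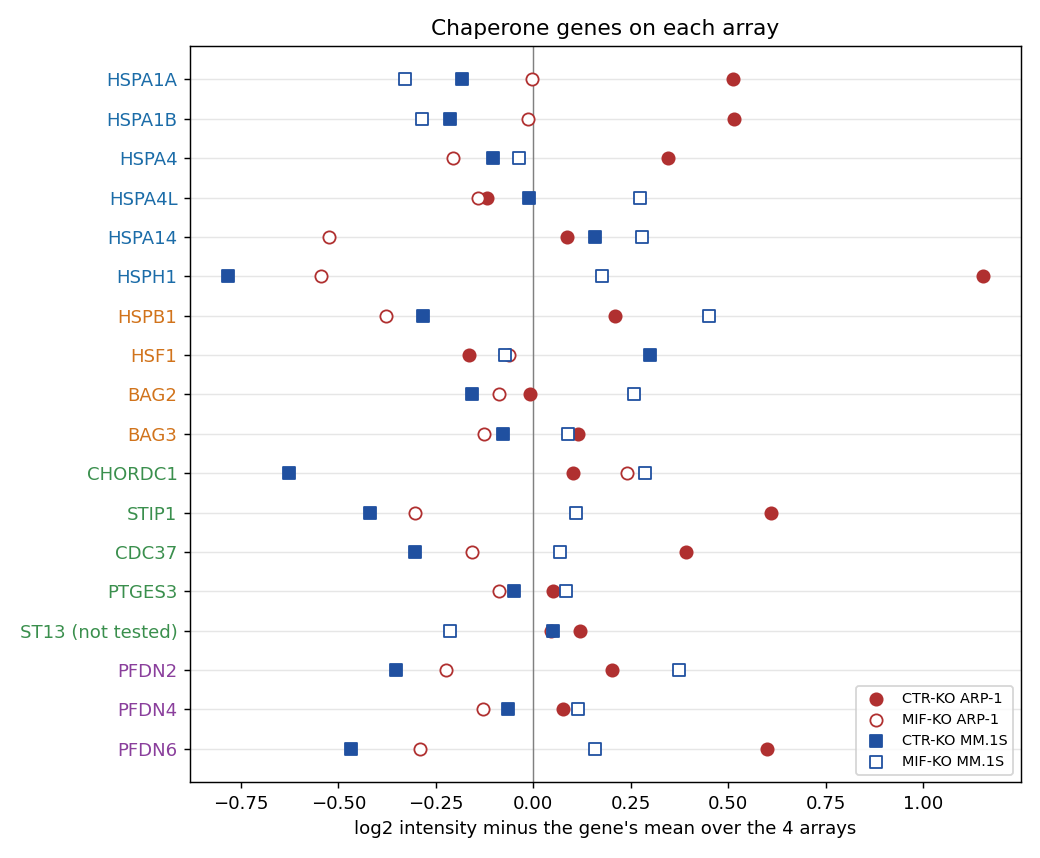
Log2 intensity of the 18 measured chaperone genes on each array minus the gene's mean over the 4 arrays, with filled symbols for CTR-KO, open symbols for MIF-KO, circles for ARP-1 and squares for MM.1S. The filled circle of HSPH1 lies at 1.15 and its filled square at -0.78, the widest distance in the plot.

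HSPB1 (HSP27), a small heat-shock protein that keeps unfolded proteins soluble, was at 11.95 in ARP-1 control cells, 11.36 in ARP-1 MIF-KO cells, 11.45 in MM.1S control cells and 12.19 in MM.1S MIF-KO cells. MIF-KO stood at 66.6% of control in ARP-1 and at 166% in MM.1S, so that the lowest and the highest array were both MIF-KO. The heat-shock factor HSF1 ran the other way, at 7.34, 7.44, 7.80 and 7.43, with CTR-KO MM.1S above 3 similar arrays. It differed by 0.10 (ARP-1) and -0.37 (MM.1S) and was the 1 tested gene of the list that was higher in the former and lower in the latter.

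The BAG proteins release clients from HSP70. BAG2, which also restrains the ubiquitin ligase CHIP, was at 8.43, 8.35, 8.28 and 8.70 (ARP-1 control, ARP-1 MIF-KO, MM.1S control and MM.1S MIF-KO). BAG3, which directs clients to autophagy, was at 6.91, 6.67, 6.72 and 6.89. BAG2 had the largest mean difference of its group, 0.17 (SE 0.32, 95% interval -0.65 to 0.99; -0.08 (ARP-1) and 0.42 (MM.1S)), with a limma adjusted p of 0.99995. The group of 4 had medians of -0.16 in ARP-1, with 3 lower and 1 higher, and 0.29 in MM.1S, with 3 higher and 1 lower.

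CHORDC1, a co-chaperone of HSP90, was the exception among the co-chaperones, being higher in MIF-KO cells of both lines. Its log2 intensity was 5.18 in ARP-1 control cells, 5.32 in ARP-1 MIF-KO cells, 4.45 in MM.1S control cells and 5.36 in MM.1S MIF-KO cells. Both MIF-KO arrays lay above both controls, which held for this 1 of 17 genes, while 20.6% of all tested genes had conditions that did not overlap. This count rests on the titles of the ARP-1 arrays: after the swap CHORDC1 overlapped, and 12 of the 17 genes, like 52% of all tested genes, did not. Its mean difference of 0.53 (SE 0.26, 95% interval -0.13 to 1.18; 0.14 (ARP-1) and 0.91 (MM.1S)) had a limma adjusted p of 0.99995. The level of this probe set is close to the lower limit for testing, 4.97, and was below it on CTR-KO MM.1S. The related pseudogene entry CHORDC1P4, which is not on the list, differed by -0.69 (ARP-1) and 0.56 (MM.1S). In ARP-1 its direction was thus opposite to that of CHORDC1.

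STIP1 (HOP) hands clients from HSP70 to HSP90 and was at 8.84, 7.92, 7.81 and 8.34 (ARP-1 control, ARP-1 MIF-KO, MM.1S control and MM.1S MIF-KO). CDC37, which brings kinases to HSP90, was at 9.54, 8.99, 8.85 and 9.22. Both genes were highest on CTR-KO ARP-1 and lowest on CTR-KO MM.1S, as HSPH1 was. STIP1 differed by -0.91 (ARP-1) and 0.53 (MM.1S), and CDC37 by -0.55 and 0.37.

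PTGES3 (p23), which holds HSP90 in its closed form, was at 10.30, 10.16, 10.20 and 10.33 and varied least of the co-chaperones. Another, dimmer probe set of PTGES3 differed by -0.94 (ARP-1) and 0.25 (MM.1S), where the brighter one differed by -0.14 and 0.13, so that its probe sets disagreed in size and not in direction. ST13 (HIP), which steadies HSP70 on its client, lay between 3.33 and 3.66 on the 4 arrays and was below the level for testing. The 4 tested co-chaperones had medians of -0.34 in ARP-1, with 3 lower and 1 higher, and 0.45 in MM.1S, with all 4 higher.

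Prefoldin subunits followed one direction in each line. PFDN2 was at 10.03 in ARP-1 control cells, 9.60 in ARP-1 MIF-KO cells, 9.48 in MM.1S control cells and 10.20 in MM.1S MIF-KO cells. PFDN6 was at 7.71, 6.82, 6.65 and 7.27 in the same order, and PFDN4 at 6.31, 6.11, 6.17 and 6.35. All 3 were lower in MIF-KO ARP-1 (median -0.42, from -0.89 to -0.21) and higher in MIF-KO MM.1S (median 0.63, from 0.18 to 0.73). PFDN2 had the largest mean difference, 0.15 (SE 0.38, 95% interval -0.82 to 1.12; limma adjusted p = 0.99995).

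Set side by side, the groups shared the direction of their medians in each line. In ARP-1 the medians were -0.54 for the HSP70 family, -0.42 for prefoldin, -0.34 for the co-chaperones and -0.16 for the small HSP set. In MM.1S they were 0.63 for prefoldin, 0.45 for the co-chaperones, 0.29 for the small HSP set and 0.09 for the HSP70 family. Each group has 3 to 6 genes whose ranges overlap with those of the others, and differences between groups were not tested.

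**Figure D4:**
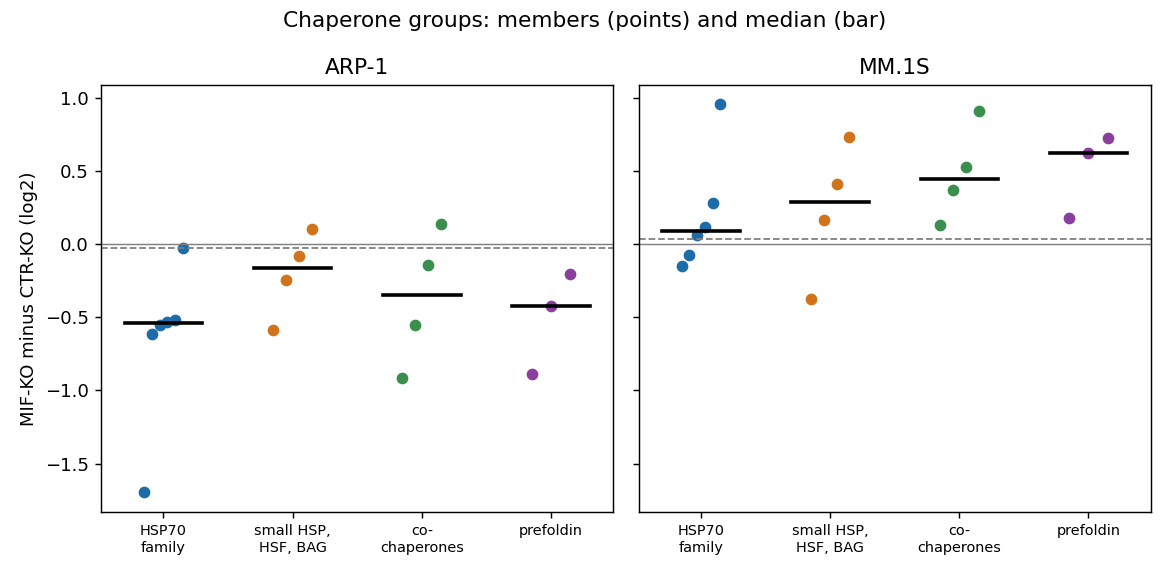
MIF-KO minus CTR-KO (log2) for the tested genes of each chaperone group (points) with the group median (black bar) in ARP-1 on the left and MM.1S on the right. The dashed line is the median of all 7442 tested genes, and all 4 group medians lie below it in ARP-1 and above it in MM.1S.

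The promoter letters did not divide the genes into separate ranges. The 8 genes with a heat-shock element in a window had medians of -0.52 (ARP-1) and 0.47 (MM.1S). HSPA1A and HSPA1B, whose probe sets can share signal, are both among the 8, and the ARP-1 median lies between their values. The 6 genes without an element had medians of -0.40 and 0.17, and HSPH1, with the widest differences, was among them. Their differences overlapped in both lines, from -0.91 to 0.14 with the element and from -1.70 to -0.14 without it in ARP-1, and from -0.15 to 0.91 and from 0.07 to 0.96 in MM.1S.

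MM.1S and ARP-1 were then compared with each other. Under the control hairpin 7 of 17 genes were at least 1.5-fold lower in MM.1S (HSPH1, PFDN6, STIP1, HSPA1B, CHORDC1, CDC37 and HSPA1A; 11.1% of all tested genes) and 0 were higher (11.2% of all). Under the MIF hairpin 4 were at least 1.5-fold higher in MM.1S (HSPB1, HSPA14, HSPH1 and PFDN2; 8.22% of all tested genes) and 0 were lower (4.37% of all). These comparisons use the same 4 arrays as those between the hairpins and have 1 array per side. The median of the 17 genes was -0.49 between the control arrays and 0.24 between the MIF-KO arrays, against -0.017 and 0.052 for all tested genes. These counts and medians depend on the disputed ARP-1 titles. With that pair swapped, 1 gene was at least 1.5-fold lower in MM.1S under the control hairpin (CHORDC1; 3.33% of all tested genes) and 1 higher (HSPA14; 3.31% of all). Under the MIF hairpin 3 were then lower (HSPA1A, HSPA1B and HSPH1; 3.56% of all) and 0 higher (6.89% of all). The medians became -0.069 between control arrays and 0.034 between MIF-KO arrays.

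Averaged over both hairpins, limma called 0 of 17 genes and 0 of 7442 (0%) for line at an adjusted p below 0.05. At an unadjusted p below 0.05 there were 0 of the 17 and 87 of all genes. The smallest p-values of the list belonged to HSPA1B, HSPA1A, CHORDC1, HSPA14 and HSPH1. HSPA1A was lower in MM.1S by a mean difference of -0.51 (SE 0.29, 95% interval -1.25 to 0.23) and HSPA1B by -0.50 (SE 0.27, 95% interval -1.21 to 0.21), each with a limma adjusted p of 0.99986. CHORDC1 differed by -0.34 (SE 0.26), HSPA14 by 0.44 (SE 0.34) and HSPH1 by -0.61 (SE 0.67), also with limma adjusted p-values of 0.99986. Swapping the ARP-1 pair leaves these means as they are, and the lowest limma adjusted p of the 17 genes was then 0.33, for HSPH1. The arrays of the lines did not overlap for 4 of the 17 genes (HSPA1A and HSPA1B lower, HSPA14 and HSPA4L higher in MM.1S), against 27.4% of all tested genes. The HSPH1 difference between the lines was -1.94 under the control hairpin and 0.72 under the MIF hairpin.

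**Figure D5:**
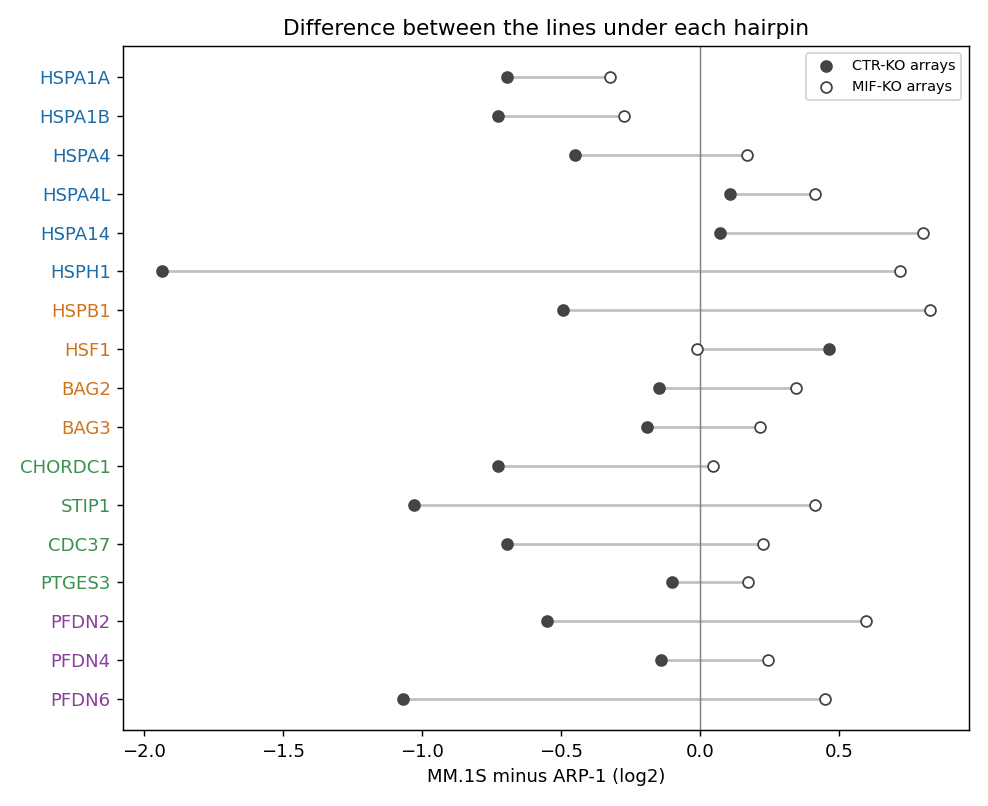
MM.1S minus ARP-1 (log2) for the 17 tested chaperone genes between the CTR-KO arrays (filled) and between the MIF-KO arrays (open), joined by a grey line. The filled points of 14 genes lie below 0, and HSPH1 has the longest line, from -1.94 to 0.72.

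Over pairs of arrays, the 17 genes were most alike between ARP-1 MIF-KO cells and MM.1S control cells, which differ in line and hairpin. Their median absolute difference was 0.13 there, with 2 genes at least 1.5-fold apart. Between CTR-KO ARP-1 and MIF-KO ARP-1 it was 0.52 with 5 such genes, and between the control arrays 0.49 with 7. Over all tested genes the same pair was closest, with a median absolute difference of 0.18 and 6.64% of genes 1.5-fold apart, and the ARP-1 pair was farthest, at 0.29 and 22.8%. Both of the most distant pairs over all genes, at 22.8% and 22.3%, contain CTR-KO ARP-1. Its remaining pair, with MIF-KO MM.1S, had 10.5% of genes 1.5-fold apart, against 12.6% between the MIF-KO arrays of the lines. For the 17 genes the median absolute differences of these pairs were 0.27 and 0.32. Each ARP-1 array was thus closest to the MM.1S array of the other hairpin. The part of CTR-KO ARP-1 in the chaperone results was not tested.

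A wider list of 74 other genes, most of them of the cytosolic folding machinery, with further BAG, prefoldin and tubulin-folding genes, had 38 named and 31 tested. In ARP-1 5 of the 31 were at least 1.5-fold lower in MIF-KO (11.9% of all tested genes) and 0 higher (10.9% of all), with a median of -0.21. In MM.1S 1 was higher (5.12% of all tested genes) and 0 lower (2.89% of all), with a median of 0.07. Counts of this size are near those shares. RPAP3, a scaffold of the R2TP assembly complex that works with HSP90, was at 7.74 in ARP-1 control cells, 6.47 in ARP-1 MIF-KO cells, 6.86 in MM.1S control cells and 7.59 in MM.1S MIF-KO cells, the lowest difference of the list in ARP-1 (-1.27) and the highest in MM.1S (0.73). FKBP5, an HSP90 co-chaperone that limits the glucocorticoid receptor, came next in both lines, at -0.85 and 0.50. PDRG1, a partner of prefoldin-like proteins, differed by -0.72 in ARP-1, and HSPA12B, a distant HSP70 relative, by 0.42 in MM.1S.

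At the other end of the wider list, the tubulin-folding factor TBCE differed by 0.27 in ARP-1, and the folliculin partner FNIP1, which slows HSP90, by 0.20 (ARP-1) and -0.26 (MM.1S). HSF4, a heat-shock factor known from the lens, differed by 0.17 and -0.17, and HSPA2, an HSP70 known from the testis, by -0.25 in MM.1S. Limma called 0 of the 31 genes for condition and 0 for line at an adjusted p below 0.05.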

How the data were processed

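RNA of 4 samples was labelled for whole-transcript arrays. The authors deposited probe set intensities on a linear scale. Per the submitters' processing notes the tools were RMA and limma, with neither version nor role stated. Background step and build: not given in the sources used here. Log2 was taken with no pseudocount. A platform annotation (GEO's, matched to RefSeq by Entrez ID for all entries) gave 16098 of 53617 probe sets a single gene symbol. The other 37519, without a symbol or with several, count as unnamed here. The upper part of the genes by mean, from the median gene (log2 4.97) upward, was tested. Condition and cell line were fitted together in limma 3.58.1 under R 4.3.3, with trended eBayes (prior degrees of freedom 3.99) and Benjamini-Hochberg adjustment over 7442 genes. The labels pair arrays by cell line, and same-line arrays deviated from their condition means with r = -0.37 across genes. The p-values rest on how far the lines disagree in their hairpin difference, moderated over all tested genes. That disagreement may be partly technical, and the number of arrays limits the precision. The fit was tested on simulated data. The members, groups and other lists were chosen with earlier results of these data known. All measured members are named, and fitted values are given for the member of largest mean difference in each group (others where they bear on a result), for the 5 of smallest p between lines, and for up to 3 genes per end of the wider list in each line. Values of HSPA1A and HSPA1B under condition were added after they were seen. Alternatives covered the array exchange, filters, scaling, probe set choice, the variance prior, the cell line term, the fold limit and each array left out.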

Additional observations from a re-analysis of the deposited data

Results flagged for a closer look

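For 14 of the 17 tested genes the MIF-KO arrays moved in opposite directions in the lines. This was not tested, as there is 1 array per line and condition. Of the 14, 13 were lower in ARP-1 and higher in MM.1S, against 37.5% of all tested genes. The share of all genes with opposite signs of either kind was not counted. With the disputed ARP-1 pair swapped, the 14 would move in the same direction in both lines. The difference in MM.1S minus the difference in ARP-1, on the log2 scale, was 2.66 for HSPH1, 1.52 for PFDN6, 1.44 for STIP1, 1.32 for HSPB1 and 1.15 for PFDN2. It was 0.92 for CDC37, 0.73 for HSPA14, 0.62 for HSPA4, 0.50 for BAG2, 0.41 for BAG3, 0.38 for PFDN4, 0.31 for HSPA4L and 0.27 for PTGES3. HSF1 alone had the other sign, at -0.48. Among 7442 genes HSPH1 ranked 49 by the size of this value and PFDN6 457.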

How the results depend on the processing

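With the ARP-1 arrays exchanged, 3 chaperone genes and 401 genes in all passed for condition, and the counts at least 1.5-fold apart in ARP-1 became 0 lower and 5 higher. The medians then turned to 0.52 in ARP-1 and 0.31 over both lines, and to 0.27 for the HSP70 family, 0.42 for co-chaperones and 0.58 for prefoldin, and HSPH1 turned to 1.33. These turns follow from the exchange itself. In an exchange added after seeing the data, 12 genes in place of 1 had hairpins that did not overlap, and the counts between lines became 1 lower and 1 higher under the control hairpin and 3 lower and 0 higher under the MIF hairpin. Quantile normalization left 3 genes lower in ARP-1 and 4 higher in MM.1S. At 2-fold, 1 gene was lower in ARP-1 and 0 higher in MM.1S. The stricter filter, which drops PFDN4, turned the prefoldin median over both lines to 0.0089 and left 4 genes higher in MM.1S. Leaving out an array of a line leaves the other line's difference, with no test. The median of all 17 genes then ranged from -0.52 to 0.28, of the HSP70 family from -0.54 to 0.093, of co-chaperones from -0.34 to 0.45, of prefoldin from -0.42 to 0.63 and of the small HSP set from -0.16 to 0.29. HSPH1 ranged from -1.70 to 0.96, BAG2 from -0.080 to 0.42 and PFDN2 from -0.42 to 0.73. Between lines, CHORDC1 ranged from -0.73 to 0.046 and HSPH1 from -1.94 to 0.72, with HSPA14 from 0.071 to 0.80, HSPA1B from -0.73 to -0.27 and HSPA1A from -0.70 to -0.32. Without the cell line term, without a trend, without a filter, with arrays shifted to the same median or with the mean over probe sets, no direction or call of these results changed.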
